A study of Mus musculus with 6 samples.

Results

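Collagen genes were examined in the spinal cord of C57BL/6 mice of wildtype genotype. The members were all genes of the count files whose mouse symbol reads Col, a number, a and a number, with at least 10 counts summed over the 6 libraries. Of 44 such symbols in the files, 37 were members, among 21524 genes with at least 1 count. They comprised 11 fibrillar collagens, 5 basement membrane collagens of type IV and 21 other collagens. The 7 symbols below 10 counts were Col4a3, Col6a4, Col6a5, Col6a6, Col10a1, Col17a1 and Col28a1, with 0 to 9 counts each. Just inside the threshold stood Col24a1 with 14 counts and Col4a6 with 15, and just outside it Col6a6 with 9.

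One group received a contusion on a single side of the cord, at level C5 of the neck, from an impactor set to 50 kdyn, and its tissue was taken 4 h later (spinal cord injury, SCI, n = 3 mice). The other had a laminectomy alone, the opening of the vertebral bone without a blow to the cord (sham, n = 3 mice). Both groups therefore carry the bone and muscle wound of the surgery. No time of collection is listed for the sham libraries, so whether it matched that of SCI is not known here. Libraries were 3′ end libraries of total RNA, in which a count does not scale with transcript length, so levels of different genes are compared directly. Levels are CPM, the counts of a gene relative to the library's total, scaled for library composition by the TMM method, and differences are log2 fold changes of SCI over sham.

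Collagens are secreted or membrane proteins built of 3 chains wound into a triple helix. Fibrillar types assemble into the tensile fibrils of meninges, nerve sheaths, bone and cartilage. Type IV forms the sheet-like network of basement membranes, which in the cord underlie endothelium and surround vessels and the glial boundary. The remaining types decorate fibrils (the FACIT group), form beaded filaments (type VI) or networks (type VIII), span the cell membrane, or sit in basement membrane zones (types XV and XVIII, the multiplexins).

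Total counts were between 3407176 (sham 3) and 11543633 (sham 2). Neuron markers summed to between 3640 and 5257 CPM and oligodendrocyte markers to between 4895 and 8487 CPM, so both were abundant in each library. Transcripts of hepatocytes were present too, and 10 hepatocyte markers held 4.64% to 9.08% of the counts of a library. They were highest in sham 2, at 100944 CPM, and lowest in sham 3, at 42902 CPM, with the other 4 libraries between 54576 and 60861 CPM. The noncoding RNA of the inactive X chromosome, Xist, and transcripts of 4 Y-linked genes were both found in every library, and the labels give neither sex nor pooling of animals. Haemoglobin transcripts summed to between 602 and 828 CPM in sham and between 1568 and 4241 CPM in SCI.

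Of the 37 members, 27 passed the filter on low counts and were tested with edgeR's quasi-likelihood test over 13560 genes. The type IV chain Col4a2 was the member that passed (p under 0.05 after Benjamini-Hochberg adjustment), and it was higher in SCI. Over all genes tested, 0.929% were called in either direction, 0.885% as higher and 0.0442% as lower. No collagen was called lower by edgeR, DESeq2 or limma voom. An unadjusted p under 0.05 was found for 6 of the 27 collagens, and for 7.38% of all genes tested. These were Col4a1, Col4a2, Col11a2 and Col6a2 with positive log2 fold changes, and Col1a1 and Col3a1 with negative ones. Every SCI library was above every sham library in 5 tested members, where 7.73% of all genes tested did so, and every SCI library was below in 1, where 5.94% did. The plot of fold changes shows the 27 tested members by class.

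**Figure D1:**
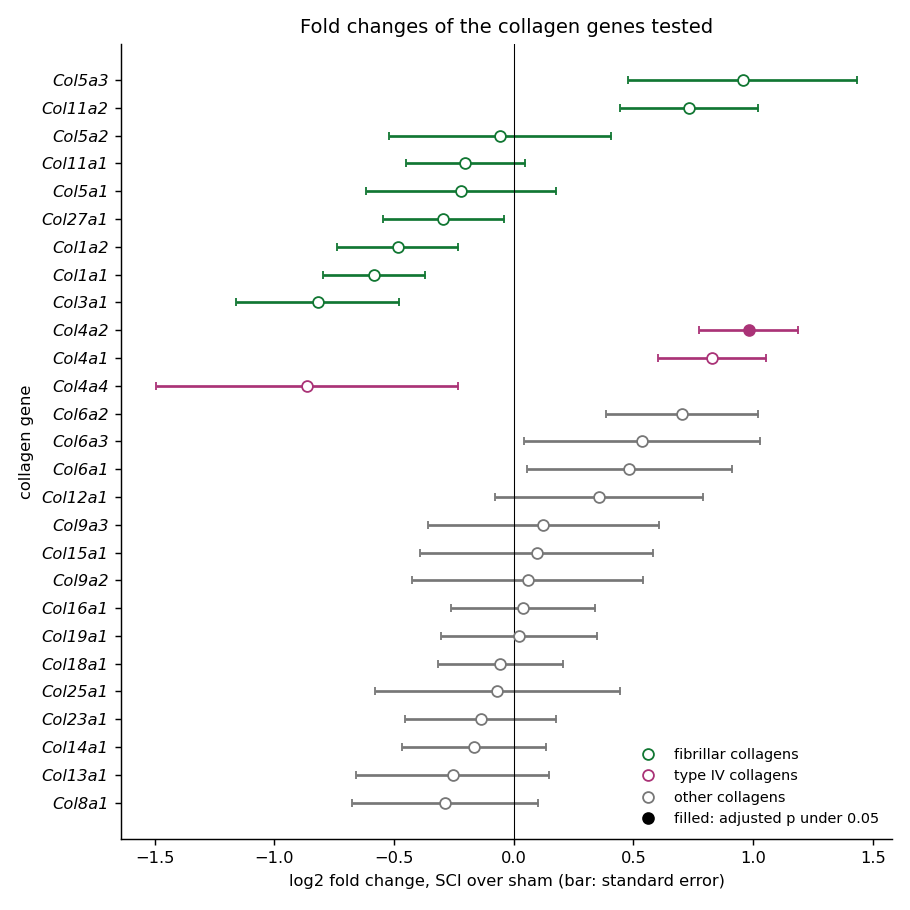
Log2 fold changes of SCI over sham (x axis) for the 27 collagen genes tested (y axis), with bars of 1 standard error, coloured by class; the filled point passed an adjusted p of 0.05. Col4a2 at 0.98 and Col4a1 at 0.83 stand at the right, and the fibrillar genes Col1a1, Col1a2 and Col3a1 stand left of 0.

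Among basement membrane collagens, Col4a2 rose 1.97-fold in SCI, and its partner Col4a1, at 1.78-fold, was not called. These ubiquitous chains did not overlap between the groups. The genes of these chains lie head to head at chromosome 8 (GRCm38). Col4a1 (ENSMUSG00000031502) spans 11198423 to 11312826 on the minus strand, and Col4a2 (ENSMUSG00000031503) spans 11312805 to 11449287 on the plus strand, so that their annotated 5′ ends overlap by 22 bases. Their promoter windows, taken from 250 bases before to 50 after the RefSeq start (GRCm38.p6), are shown because both genes differed in the same direction and share this start region. Capitals mark matches on either strand, which can overlap, to the letters of the TATA box (TATAAA), the CCAAT box (CCAAT), the GC box (GGGCGG) and the AP-1 site (TGANTCA).
Col4a1, chr8:11312777-11313076, minus strand: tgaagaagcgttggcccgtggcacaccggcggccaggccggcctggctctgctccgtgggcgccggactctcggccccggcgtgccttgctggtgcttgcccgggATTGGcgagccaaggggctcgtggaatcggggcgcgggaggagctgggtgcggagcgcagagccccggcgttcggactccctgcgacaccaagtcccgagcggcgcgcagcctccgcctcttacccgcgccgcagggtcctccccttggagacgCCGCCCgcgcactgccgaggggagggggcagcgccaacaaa
Col4a2, chr8:11312555-11312854, plus strand: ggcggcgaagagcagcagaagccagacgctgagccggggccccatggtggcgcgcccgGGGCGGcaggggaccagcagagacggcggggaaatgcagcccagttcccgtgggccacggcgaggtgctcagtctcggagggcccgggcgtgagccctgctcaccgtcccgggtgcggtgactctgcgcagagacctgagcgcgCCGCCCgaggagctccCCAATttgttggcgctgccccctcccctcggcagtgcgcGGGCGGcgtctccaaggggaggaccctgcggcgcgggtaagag
Overlap of both genes, chr8:11312805-11312826, plus strand: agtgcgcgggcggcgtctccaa
The windows share 78 bases, from 11312777 to 11312854. Each held 1 CCAAT match, the Col4a1 window 1 and the Col4a2 window 3 GGGCGG matches, and neither a TATAAA or TGANTCA match. The GGGCGG match of Col4a1 is also 1 of the 3 of Col4a2, read from the other strand. It lies in the overlap of 22 bases, which is printed above without marking. Of the 32851 windows of that table, 37.4% held CCAAT, 35.7% GGGCGG, 13.6% TATAAA and 7.81% TGANTCA. The GC content was 74.0% for Col4a1 and 73.7% for Col4a2, beside a median of 52.7% over the table. These matches describe the letters and are not mapped binding sites.

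Col4a2 had 12.1, 11.2 and 12.7 CPM in sham libraries 1 to 3 and 21.3, 26.4 and 23.0 CPM in SCI libraries 1 to 3. The sham values lay close together and the lowest SCI value was well above the highest of them. Its mean went from 11.997 ± 0.790 to 23.6 ± 2.62 CPM (SD, n = 3 mice each). On the log2 scale Col4a2 rose by 0.98 ± 0.21 (SE, adjusted p = 0.0302 by edgeR). It passed in 7 of 14 alternatives. Among those in which it did not were the fits without sham 1 (adjusted p = 0.196), sham 2 (0.0638), SCI 1 (0.0888), SCI 2 (0.221) or SCI 3 (0.0824), and that with total counts as the scaling (0.0676). The log2 fold change stayed between 0.89 and 1.05 under all 14 alternatives.

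Col4a1, the partner chain in the same heterotrimer, had 14.8, 14.4 and 12.7 CPM in sham and 23.6, 19.5 and 32.3 CPM in SCI. All SCI libraries were above all sham libraries, and SCI 3 was the highest. The log2 fold change of Col4a1 was 0.83 ± 0.23 and did not pass the test (edgeR adjusted p = 0.179). It passed with no filter on low counts (adjusted p = 0.0430), and its log2 fold change was between 0.61 and 0.98 under the alternatives. The ratio of Col4a1 to Col4a2 within a library was 1.17 ± 0.151 in sham and 1.08 ± 0.334 in SCI, so that the difference in this ratio was smaller than its spread.

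The specialised type IV chains were scarce. Col4a4, which with Col4a3 and Col4a5 forms the network of kidney and some other basement membranes, had 23, 10 and 7 counts in sham and 11, 10 and 1 in SCI. Its groups overlapped, with a log2 fold change of -0.86 ± 0.63 (edgeR adjusted p = 0.862). Col4a3, which starts 71 bases from Col4a4 in the opposite direction on chromosome 1, had 5 counts in all and was no member. The X-linked pair Col4a5 and Col4a6 is also arranged head to head, with 1308 bases between the genes. Col4a5 had 13 counts over the sham and 24 over the SCI libraries, of which 16 came from SCI 1, and Col4a6 had 7 and 8. Both were below the filter and not tested.

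**Figure D2:**
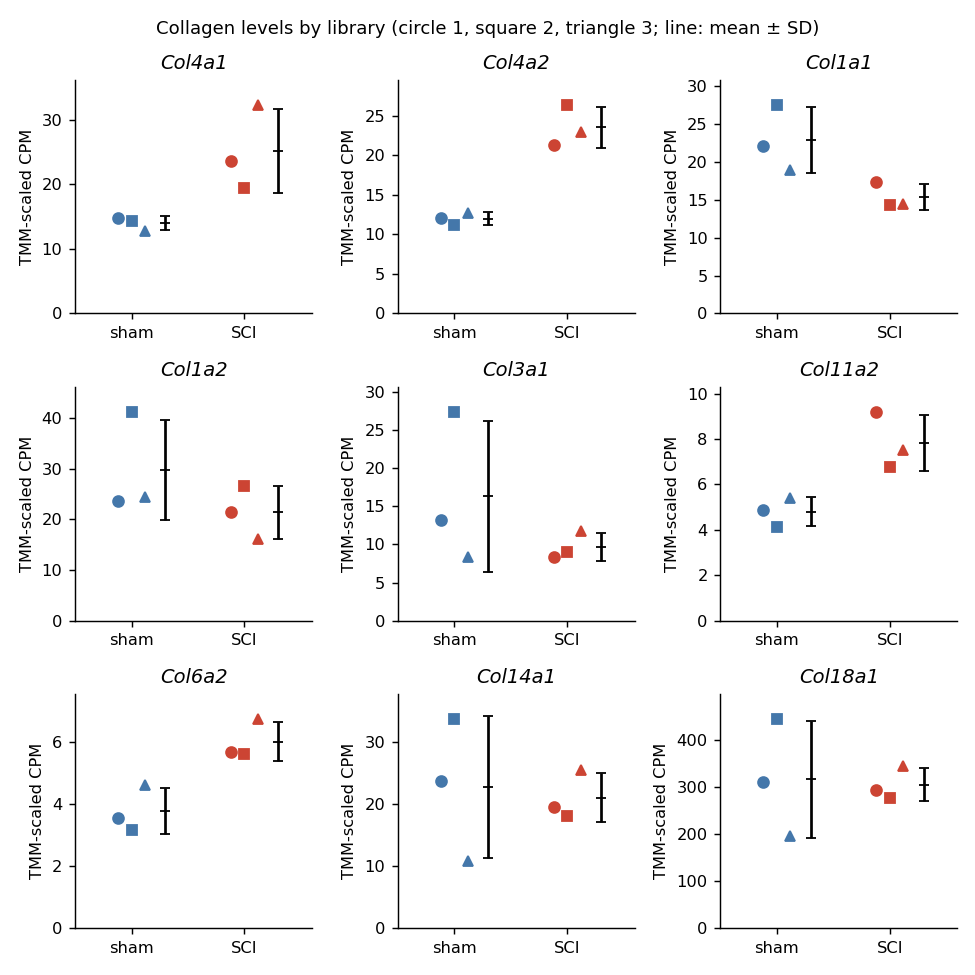
TMM-scaled CPM (y axis, from 0) of 9 collagen genes in the 3 sham and 3 SCI libraries; symbols give the library number and the line is the mean ± SD. Col4a1, Col4a2, Col11a2 and Col6a2 show SCI libraries above all sham libraries, Col1a1 shows them below, and sham 2 stands highest for Col1a1, Col1a2, Col3a1, Col14a1 and Col18a1.

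No fibrillar collagen passed the test in either direction, and 7 of 9 tested members had a negative log2 fold change. The median over these 9 was -0.22, beside -0.0025 over all genes tested, and it lay between -0.45 (without sham 1) and -0.11 (without sham 2) when single libraries were left out. The remaining fibrillar members, Col2a1 of cartilage with 5 and 12 counts in sham and SCI and Col24a1 with 10 and 4, were below the filter.

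Type I collagen, the main protein of tendon, bone and meningeal fibrils, is made of chains from Col1a1 and Col1a2. Col1a1, at chromosome 11, 94936224 to 94953042 (ENSMUSG00000001506), had 22.1, 27.5 and 19.0 CPM in sham and 17.3, 14.3 and 14.5 CPM in SCI. Every SCI value was below every sham value, with means of 22.9 ± 4.34 and 15.4 ± 1.68 CPM. The log2 fold change of -0.58 ± 0.21 did not pass the test (edgeR adjusted p = 0.451), and it stayed negative, from -0.69 to -0.43, under all 14 alternatives. Col1a2, at chromosome 6, 4504814 to 4541544 (ENSMUSG00000029661), was the second most abundant collagen. It had 23.6, 41.2 and 24.4 CPM in sham and 21.5, 26.6 and 16.1 CPM in SCI, and sham 2 stood above all the others. Its log2 fold change of -0.49 ± 0.25 (edgeR adjusted p = 0.722) was -0.17 ± 0.23 without sham 2.

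Col3a1, which forms homotrimers that mix with type I in the fibrils of vessel walls and meninges, had 13.1, 27.3 and 8.40 CPM in sham and 8.34, 8.95 and 11.7 CPM in SCI. The groups overlapped, and the 3 sham libraries spread over a coefficient of variation of 60.5%, against 18.5% in SCI. The log2 fold change of -0.82 ± 0.34 did not pass the test (edgeR adjusted p = 0.574) and was -0.22 ± 0.29 without sham 2. With the hepatocyte level as a covariate it was -0.37 ± 0.24. Sham 2 was the library with the most hepatocyte transcripts, whose part in the levels of type I and III collagen was not tested.

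The promoter windows of Col1a2 and Col3a1 are shown as fibrillar examples beside the start region of Col4a1 and Col4a2, with the same marking.
Col1a2, chr6:4505368-4505667, plus strand: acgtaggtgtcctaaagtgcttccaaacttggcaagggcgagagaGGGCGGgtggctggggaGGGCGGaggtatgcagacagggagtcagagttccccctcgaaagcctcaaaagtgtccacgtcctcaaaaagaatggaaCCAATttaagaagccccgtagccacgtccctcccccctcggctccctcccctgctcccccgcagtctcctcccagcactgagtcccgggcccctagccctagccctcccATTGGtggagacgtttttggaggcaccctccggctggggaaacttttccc
Col3a1, chr1:45311288-45311587, plus strand: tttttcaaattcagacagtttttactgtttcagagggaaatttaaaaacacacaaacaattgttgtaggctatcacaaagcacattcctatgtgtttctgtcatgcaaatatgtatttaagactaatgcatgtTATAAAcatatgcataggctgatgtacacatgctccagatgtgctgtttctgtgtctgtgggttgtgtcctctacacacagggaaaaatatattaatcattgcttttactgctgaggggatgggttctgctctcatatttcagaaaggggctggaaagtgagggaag
The window of Col1a2 held 2 matches to the CCAAT box and 2 to the GC box, with a GC content of 61.0%. That of Col3a1 held 1 match to the TATA box and none to the CCAAT box or the GC box, with a GC content of 37.7%. GC content did not divide the classes. It was 75% for the fibrillar Col5a1, and 52.7% and 48.3% for the type IV genes Col4a5 and Col4a6. Windows were found for 29 of the 37 members, 32 windows in all. The TATA box letters were in 2 of 8 fibrillar windows and 0 of 5 type IV windows, and those of the GC box in 6 of 8 and 4 of 5. The AP-1 letters were in 1 of the 32 windows, that of Col6a1. No window for Col1a1 was used here.

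The minor fibrillar chains did not share one direction. Col11a2, a chain of the cartilage type XI fibril that also nucleates type I and II fibrils, had 4.86, 4.14 and 5.42 CPM in sham and 9.19, 6.79 and 7.53 CPM in SCI. Its groups did not overlap, and the log2 fold change of 0.73 ± 0.29 did not pass the test (edgeR adjusted p = 0.519). Col5a3, a chain of the type V collagen that sets fibril diameter, had 9, 10 and 6 counts in sham and 23, 15 and 10 in SCI, or 1.26 ± 0.338 and 2.31 ± 0.418 CPM. It too lay above sham in every SCI library (log2 fold change 0.96 ± 0.48, edgeR adjusted p = 0.711). The other chains of types V and XI, Col5a1, Col5a2 and Col11a1, had log2 fold changes from -0.22 to -0.06 and overlapping groups. Col27a1, a fibrillar collagen of cartilage, had 14.9 ± 4.81 CPM in sham against 12.3 ± 1.41 CPM in SCI, or -0.29 ± 0.25 on the log2 scale (edgeR, adjusted p = 0.890), and its value was 0.02 without sham 2.

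Among the 21 other collagens no member was called, and the 15 tested members had a median log2 fold change of 0.04, with 9 positive and 6 negative. Col18a1, the multiplexin whose cleavage releases endostatin, was the most abundant collagen of the libraries and held 58.5% of all collagen CPM. It lies at chromosome 10, 77052178 to 77166548 on the minus strand (ENSMUSG00000001435). Its levels were 309.7, 444 and 195 CPM in sham and 294, 277 and 344 CPM in SCI. The sham libraries enclosed all SCI libraries, and the log2 fold change was -0.06 ± 0.26 (edgeR adjusted p = 0.985). It was 0.26 ± 0.20 without sham 2 and -0.31 ± 0.21 without sham 3.

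The extremes of Col18a1, sham 2 and sham 3, were also the extremes of the hepatocyte markers. With the hepatocyte sum written in kCPM, Col18a1 per unit of it was at 5.09, 4.40 and 4.54 in sham and 4.97, 5.07 and 6.02 in SCI. Across libraries this ratio ran from 4.40 to 6.02, while the level of Col18a1 itself ran from 195 to 444 CPM. With the hepatocyte level as a covariate the log2 fold change of Col18a1 was 0.18 ± 0.13 (edgeR adjusted p = 0.663). Col4a2 did not have this pattern: sham 2 had its lowest value, and its log2 fold change with that covariate was 0.94 (edgeR adjusted p = 0.0151). Whether liver RNA carried the Col18a1 counts was not tested. Slc19a1 overlaps the Col18a1 gene on the opposite strand without sharing exons in the annotation.

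**Figure D3:**
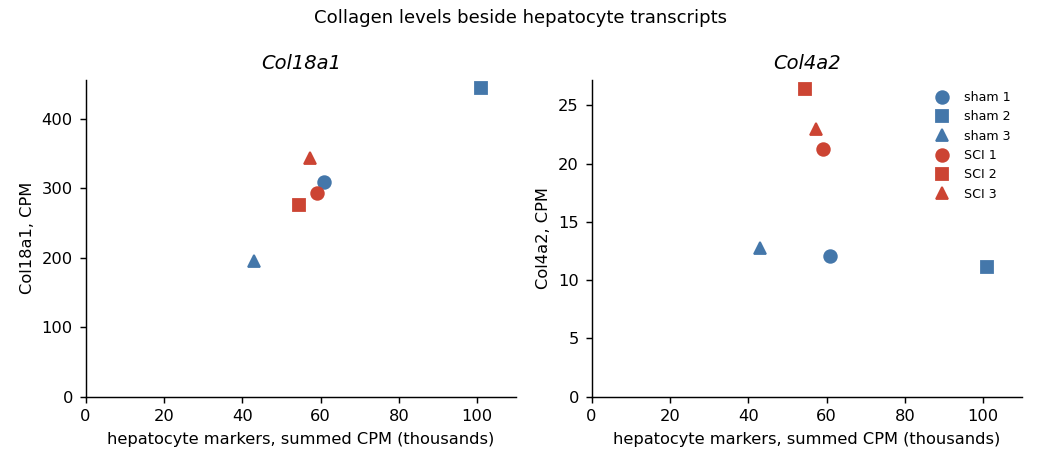
Levels of Col18a1 (left) and Col4a2 (right) in CPM (y axes) against the summed CPM of 10 hepatocyte markers in kCPM (x axes), 1 point per library. Col18a1 is lowest in sham 3 and highest in sham 2, the libraries with the least and the most hepatocyte transcripts, while Col4a2 is near 12 CPM in all 3 sham libraries; no SCI library is near the hepatocyte level of sham 2 or sham 3.

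Type VI collagen forms beaded microfilaments next to basement membranes from the chains of Col6a1, Col6a2 and Col6a3. All 3 chains had positive log2 fold changes and none passed the test. Col6a2 had 3.55, 3.18 and 4.61 CPM in sham and 5.68, 5.63 and 6.74 CPM in SCI, with no overlap (log2 fold change 0.70 ± 0.32, edgeR adjusted p = 0.654). Col6a1 had 1.97, 3.95 and 1.36 CPM in sham and 2.90, 3.75 and 4.36 CPM in SCI (log2 difference 0.48 ± 0.43). For Col6a3 the values were 1.18, 2.89 and 0.813 CPM in sham and 2.90, 2.60 and 2.18 CPM in SCI (0.54 ± 0.49). Sham 2 reached the SCI range in both Col6a1 and Col6a3. Without sham 2 the log2 fold changes were the highest of their 14 alternatives, at 1.06 for Col6a1 and 1.29 for Col6a3, and were still not called. The 3 chains summed to 6.70, 10.01 and 6.78 CPM in sham and to 11.5, 11.98 and 13.3 CPM in SCI, so that each SCI library exceeded each sham library.

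The FACIT collagens sit on the surface of fibrils, and 6 of 9 were tested. Col14a1, which binds type I fibrils, was the third most abundant collagen, with 23.8, 33.7 and 10.8 CPM in sham and 19.5, 18.0 and 25.6 CPM in SCI. Sham 2 was highest and sham 3 lowest, and the log2 fold change was -0.17 ± 0.30, or 0.21 ± 0.27 without sham 2. Col12a1, Col16a1, Col19a1, Col9a2 and Col9a3 had log2 fold changes between 0.02 and 0.36, and their groups overlapped. The cell membrane collagens were Col13a1, Col23a1 and Col25a1, which carry a transmembrane segment and can be shed, and their log2 fold changes were -0.25, -0.14 and -0.07. Col23a1, the most abundant of them, had 7.48, 7.22 and 15.5 CPM in sham and 10.5, 7.07 and 8.52 CPM in SCI, and its value was 0.25 without sham 3. Col8a1, a network collagen of vessel walls, had a log2 fold change of -0.29 ± 0.39, and Col15a1, the smaller multiplexin, of 0.10 ± 0.49. The 6 other collagens below the filter were Col7a1, Col8a2, Col9a1, Col20a1, Col22a1 and Col26a1, with 16 to 62 counts in all. Col20a1 shares exon sequence with an overlapping gene on the same strand that had 52 counts, so its counts are uncertain.

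When all members of a class were summed, type IV and fibrillar collagens differed in direction. Type IV summed to 31.1, 27.2 and 28.5 CPM in sham and to 48.7, 48.5 and 56.1 CPM in SCI. Every SCI library was above every sham library, with means of 28.9 ± 2.02 and 51.1 ± 4.32 CPM. Most of the type IV sum came from Col4a1 and Col4a2 in each library, so it mainly restates their values. Col4a4, the other type IV member tested, had a log2 fold change of -0.86. Fibrillar members summed to 94.3, 141.9 and 97.6 CPM in sham and to 89.7, 90.7 and 82.5 CPM in SCI. Here every SCI library was below every sham library, with sham 1 the closest to the SCI libraries. This separation depended on the TMM scaling: relative to total counts alone, SCI 2 lay above sham 1. The log2 ratio of the group means was 0.82 for type IV and -0.34 for fibrillar collagens, and the latter was -0.13 without sham 2. The other collagens summed to 396 ± 135 CPM in sham and 387 ± 38.0 CPM in SCI, most of it Col18a1. Without Col18a1 their sums were 78.6, 90.7 and 69.9 CPM in sham and 78.1, 81.6 and 85.4 CPM in SCI, which overlapped.

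Within each library, fibrillar collagens stood at 3.03, 5.23 and 3.43 times type IV in sham libraries 1 to 3 and at 1.84, 1.87 and 1.47 times in SCI libraries 1 to 3. A ratio within a library does not depend on its scaling, and the lowest sham ratio was above the highest SCI ratio with or without sham 2. For types I and III over Col4a1 plus Col4a2 the ratio was 2.66 ± 0.960 in sham and 0.967 ± 0.177 in SCI. No p-value is given for sums and ratios, since the genes were chosen with earlier results of these data known. A ratio shows unequal change and not which side changed. The type IV side of the first ratio was mostly Col4a1 and Col4a2.

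**Figure D4:**
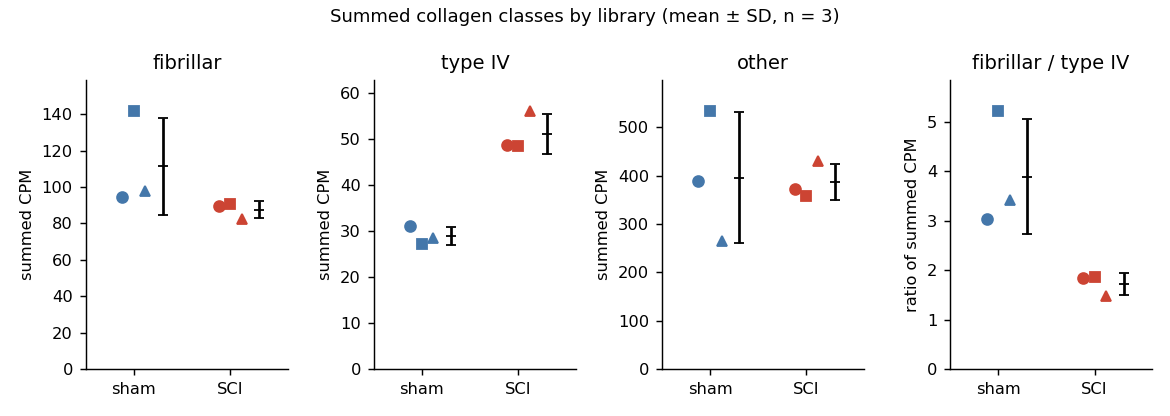
Summed TMM-scaled CPM (y axes, from 0) of fibrillar, type IV and other collagens in the 3 sham and 3 SCI libraries, and the ratio of fibrillar to type IV within each library; the line is the mean ± SD. Type IV is at 27.2 to 31.1 CPM in sham and 48.5 to 56.1 CPM in SCI, and the ratio is 3.03 to 5.23 in sham and 1.47 to 1.87 in SCI.

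No marker of the cells that make collagen was called by edgeR. Their part in the collagen differences was not tested. In bulk tissue, fewer cells of a type and less RNA per cell cannot be told apart. Endothelial markers had 0 of 8 members called by edgeR and summed to between 210.4 and 249 CPM in sham and between 243 and 275 CPM in SCI. Relative to 100 CPM of these markers, Col4a1 plus Col4a2 measured 11.1 ± 0.958 CPM in sham and 18.8 ± 1.17 CPM in SCI. Slco1a4 was the largest part of that sum, with means of 108 CPM in sham and 103 CPM in SCI. Ly6c1 went from a mean of 19.2 to 36.2 CPM, so the ratio depends on which markers weigh most in the sum. Pericyte and smooth muscle markers had 0 of 8 tested members called, with sums of 495 to 872 CPM in sham and 620 to 861 CPM in SCI. Meningeal and perivascular fibroblast markers had 0 of 11 called and sums of 313 to 512 CPM in sham and 405 to 507 CPM in SCI. Relative to 100 CPM of them, type I and III collagens measured 16.4 ± 2.48 CPM in sham and 10.5 ± 1.85 CPM in SCI. Dcn alone made up most of the fibroblast sum, with means of 247 CPM in sham and 266 CPM in SCI, so this ratio mainly reads collagen against Dcn. Schwann cell markers, whose cells also make basement membrane, had 0 of 5 tested members called and summed to 79.2 to 153 CPM in sham and 138 to 171 CPM in SCI. Of these lists, each overlapped between the groups in its sum. The most abundant markers were Slco1a4 for endothelium (log2 difference -0.07), Vtn for pericytes (0.11), Dcn for fibroblasts (0.10) and Pmp22 for Schwann cells (0.42). Vtn made up most of the pericyte sum. Within sham, Slco1a4 (115, 131 and 76.7 CPM), Vtn (590, 761 and 392) and Dcn (229, 338 and 176) were highest in sham 2 and lowest in sham 3. The hepatocyte markers had that order too, while Pmp22 was highest in sham 1. Whether liver RNA had a part in these marker sums was not tested.

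Single markers within these lists differed from their sums, and those named here were chosen after their values were seen. Over all genes tested, 7.38% had an unadjusted p under 0.05 by edgeR. Every SCI library was above every sham library in 7.73% of all genes tested, and below in 5.94%. Among endothelial markers, 2 of 8 had an unadjusted p under 0.05 by edgeR, both with every SCI library above every sham library, as Col4a1 and Col4a2 had. These were Ly6c1, with a log2 fold change of 0.95 ± 0.26, and the adhesion molecule Pecam1, with 0.62 ± 0.25. Esam (0.28) also lay above sham in every SCI library, and the tight junction gene Cldn5 (-0.996) lay below. Among fibroblast markers, 3 of 11 had an unadjusted p under 0.05, in both directions. Crabp2 (1.28) and Mgp (0.59) had positive log2 fold changes and the transcription factor Foxc1 (-0.66) a negative one. Foxc1 and Slc22a6 (-0.74) lay below sham in every SCI library, as Col1a1 did, and Crabp2 lay above. The Schwann cell marker Pmp22 was 1 of 5 with such a p and lay above sham in every SCI library. No pericyte marker of 8 had such a p.

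Bone markers summed to between 7.48 and 10.4 CPM in all 6 libraries, most of it from Alpl, which had 164 counts in sham and 126 in SCI. Of the other bone markers, Ibsp had 13 and 23 counts in sham and SCI, Dmp1 8 and 20, Sp7 5 and 7 and Phex 2 and 4. Bglap had 1 count in all, and Bglap2 and Mepe were at 0. Cartilage markers summed to between 14.1 and 18.0 CPM, with 85 and 79 counts in sham and SCI for Acan, 121 and 143 for Hapln1, 131 and 79 for Cnmd and 22 and 38 for Chad. Matn3 and Comp had 1 count each in all, and Matn1 and Epyc were at 0. Skeletal muscle markers were between 4.16 and 14.6 CPM, with overlapping groups.

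Genes that make, finish, bind and cut collagen were read from 6 lists with 73 members, of which 59 were tested. Of these 59, 1 was higher and none lower by edgeR, where 0.885% of all genes tested were higher and 0.0442% lower. An unadjusted p under 0.05 was found for 8 of them, beside 7.38% of all genes tested. The median log2 fold change was 0.06. Lox, the lysyl oxidase that starts the crosslinks of collagen and elastin, was the called gene. It had 5, 4 and 3 counts in sham and 23, 18 and 29 in SCI, or 0.618 ± 0.217 and 3.71 ± 1.77 CPM, and no SCI library reached down to the sham range. Lox rose by 2.63 ± 0.56 on the log2 scale (SE, edgeR adjusted p = 0.0331) and passed in 7 of 14 alternatives. Among those in which Lox did not pass were the fits without sham 1 (adjusted p = 0.165), sham 2 (0.1296), SCI 1 (0.0659), SCI 2 (0.0625) or SCI 3 (0.253) and that with limma voom (0.0800). Its relatives Loxl1 and Loxl2 had log2 fold changes of 0.94 and 0.97 and were not called.

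Folding and modification enzymes had 0 of 19 tested members called, with 10 positive log2 fold changes. The prolyl hydroxylase subunit P4ha3 had the smallest p of that list, with 7.35, 7.41 and 10.3 CPM in sham and 15.7, 14.7 and 9.91 CPM in SCI (log2 difference 0.73 ± 0.26, edgeR adjusted p = 0.433). P4ha1, also a prolyl hydroxylase subunit, differed by -0.85 ± 0.34 on the log2 scale (edgeR adjusted p = 0.519). Serpinh1, the collagen chaperone HSP47, was at 4.64 ± 1.57 and 2.91 ± 1.62 CPM (log2 difference -0.69 ± 0.42). Basement membrane partners of type IV had 0 of 10 tested members called and a median log2 fold change of 0.28, with 7 positive. The laminin chains Lama4 and Lama5 and the proteoglycan perlecan, Hspg2, had SCI libraries above all sham libraries. These were 3 of 10 tested members, where 7.73% of all genes tested did so. Their log2 fold changes were 0.56 ± 0.26, 1.84 ± 0.56 and 0.76 ± 0.35 (edgeR adjusted p = 0.676, 0.268 and 0.662). Lama5 had only 6, 7 and 1 counts in sham and 17, 22 and 8 in SCI. The negative log2 fold changes were those of Lama1 (-0.43), Lama2 (-0.39) and Nid1 (-0.16). P4ha1, Serpinh1, Loxl1, Loxl2, Lama1, Lama2, Lama4, Nid1 and Hspg2 were chosen after their values were seen.

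Fibril-associated proteins had 0 of 8 tested members called. The small proteoglycan osteoglycin, Ogn, had 11.4, 14.4 and 8.40 CPM in sham and 6.04, 10.4 and 8.72 CPM in SCI (log2 difference -0.48 ± 0.28, edgeR adjusted p = 0.781). Collagen receptors had 0 of 6 tested members called, and Adgrg1, a receptor of type III collagen, differed by 0.53 ± 0.20 on the log2 scale (adjusted p = 0.501). Collagen-cleaving proteases had 0 of 7 tested members called. Mmp8, the collagenase of neutrophils, had 7, 11 and 3 counts in sham and 18, 13 and 20 in SCI (log2 fold change 1.43 ± 0.51, edgeR adjusted p = 0.428).

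Besides the type IV pairs, 3 pairs of members lie near each other. Col3a1 and Col5a2 end tail to tail with 24614 bases between them on chromosome 1. Col9a1 and Col19a1 do so with 9205 bases between them. Col6a2 and Col6a1 lie on the same strand of chromosome 10, 85161 bases apart. Of these neighbours, Col3a1 and Col5a2 had log2 fold changes of -0.82 and -0.06 and Col6a1 and Col6a2 of 0.48 and 0.70.

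**Figure D5:**
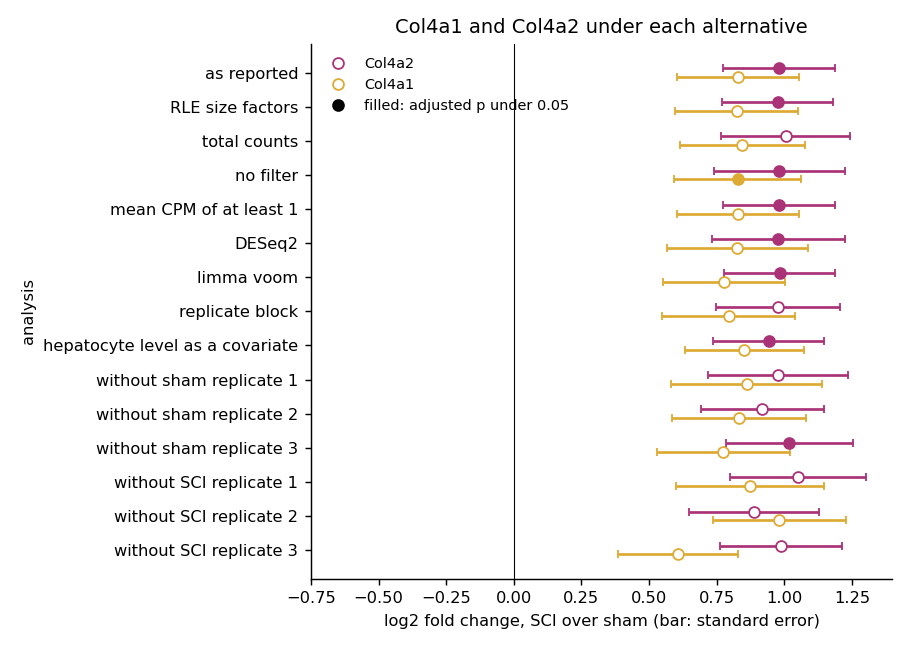
Log2 fold changes with 1 standard error (x axis) of Col4a2 and Col4a1 as reported and under each of 14 alternative analyses (y axis); filled points passed an adjusted p of 0.05. Col4a2 stays between 0.89 and 1.05 and passes in 7 of the 14 alternatives, and Col4a1 stays between 0.61 and 0.98 and passes in 1.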

How the data were processed

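RNA of spinal cord from 3 sham and 3 SCI mice was sequenced. Per the labels, Lexogen QuantSeq Forward libraries were made from 1 µg of RNA, and reads (50 bases, from a single end) were aligned by STAR 2.7.2b to mm10 with the Ensembl 96 annotation of GRCm38. The authors deposited 1 table of whole-number read counts per Ensembl gene for each sample, not normalized, and DESeq2 1.24.0 was among the tools per the submitters' processing notes. Not given in the sources used here are the counter, whether it used strand, how it placed multiply matching reads and any molecular identifiers. Counts of overlapping genes are therefore uncertain.

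Of 43432 identifiers, 42462 had a symbol and a position in GENCODE M21 (GRCm38). The main test was the robust quasi-likelihood F test of edgeR 4.0.16 (R 4.3.3) on genes kept by filterByExpr, with TMM scaling and no covariate. A call needs a p under 0.05 after Benjamini-Hochberg adjustment across the tested genes. Standard errors are the size of the log2 fold change over the root of F. The alternatives were other scalings, other filters on low counts, DESeq2 1.42.0, limma voom (limma 3.58.1), a replicate block, a hepatocyte covariate, other class limits and leaving out each library. The procedure was run on simulated counts with independent noise for each gene and library. Those counts hold no variation shared between genes, such as that of the hepatocyte markers. Libraries were taken as separate animals, as the design text gives 3 mice per group.

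The members and lists were chosen with earlier results of these data known. Values are given for called members, the 3 most abundant and the 3 with the smallest p of each class and each type IV pair, for the most abundant gene of marker lists, and for called genes of each pathway list or else that with the smallest p. The other genes named were chosen after their values were seen. Of 209 listed symbols, Col21a1 had no match. Promoter windows came from RefSeq on GRCm38.p6.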

Additional observations from a re-analysis of the deposited data

How the results depend on the processing

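Leaving out single libraries gave 62 to 132 genes called higher and 1 to 14 called lower among all genes, 0 or 1 collagen called higher, and 0 or 1 pathway gene called higher. With no filter, 182 genes were higher and 42 lower, and 2 collagens (Col4a1 and Col4a2) were higher. The genes called lower numbered 11 with DESeq2 and 19 with the hepatocyte covariate. Total counts left 0 collagens called and limma voom left 0 pathway genes. With the replicate number as a block, 81 genes were higher and 1 lower, and 0 collagens and 0 pathway genes were called. Col4a2 was at 0.98 ± 0.23 there (log2, SE; edgeR adjusted p = 0.164) and Lox at 2.49 ± 0.53 (adjusted p = 0.0998). Same-numbered sham and SCI libraries did not deviate together (r = -0.08, -0.07 and -0.17 over genes), so the numbers were not taken as pairs.

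Over single libraries left out, the median log2 fold change of fibrillar collagens (9 tested) ranged from -0.45 to -0.11. That of type IV (3 tested) ranged from 0.61 to 0.89, and with all libraries it was the value of Col4a1, 0.83. With types XV and XVIII counted as basement membrane collagens, that class had a median of 0.10 over 5 tested members. The class medians were otherwise within 1 SD between libraries under the other alternatives run. So were the log2 ratios of SCI over sham for the summed classes, under all 8 of theirs. Signs changed for Col18a1 (in 5 of 14 alternatives), Col14a1 and Col23a1 (2 each) and Col27a1 (1), none of them called. For the other 10 tested collagens named by the rule, and for Lox, P4ha3, Ogn, Lama5, Adgrg1 and Mmp8, the sign was kept throughout. Shallow counts limit the 10 members below the filter.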
